A study of Homo sapiens with 6 samples.

Results

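HCT116 and HT29 cells carrying a non-targeting hairpin RNA were compared with each other to describe how the baseline transcriptomes of these lines differ. The comparison used 2 of the 6 libraries of the series, 1 for each line, and covered 12389 of the 13040 gene identifiers in the deposited table. Of these, 10975 genes were listed in both lines, 978 in HCT116 only and 436 in HT29 only. HCT116, HT29 and SW480 are established human colorectal cancer cell lines, and the labels title the HCT116 libraries HCT116WT. In the study each line was infected with a lentivirus expressing either a short hairpin RNA (shRNA) against BZW2 or a non-targeting shRNA (both from SBI), and stable lines were kept under puromycin at 1 µg/ml. The study asked which genes and pathways differ once BZW2 is depleted. That question is not taken up here, since both libraries compared carry the control hairpin. With 1 library per line, no difference below has a replicate check and no test was run.

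Colorectal cancer lines keep parts of the program of the intestinal epithelium they came from. Transcription factors such as CDX2, KLF5 and the HNF4 family drive that program, and junction proteins and keratins hold the cell layer together. HCT116 is known as a mismatch repair-deficient line and HT29 as a line with a BRAF mutation.

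The HCT116 control library held 5640626 reads over the listed genes and the HT29 control library 9317444. Levels are given as reads and as CPM, the reads of a gene per 1000000 reads of a library after TMM scaling. Reads are not scaled for depth and the HT29 library was deeper, so fold differences follow CPM and not reads. Each ratio is the log2 of the HCT116 level over the HT29 level, so negative values are higher in HT29, and CPM of different genes are not compared because transcript length was not taken into account. Intervals are exact 95% intervals of the ratio that cover counting error only. In the authors' table, each gene listed in HCT116 or HT29 had at least 21 reads over both of that line's libraries. A blank is therefore taken here as at most 20 reads, a limit inferred from the values. It would allow up to 3.46 CPM in the HCT116 control library and 2.20 in that of HT29.

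The control libraries did not stand equally far apart, which bears on the label HCT116. Spearman correlations were taken over the 10875 genes listed in all 3 lines. Shares beyond 2-fold were taken over the 6843 genes with at least 100 reads in each of the 3 control libraries. The libraries labelled HCT116 and SW480 had a correlation of 0.976, and 0.760% of genes lay beyond 2-fold. The HCT116 and HT29 control libraries had a correlation of 0.828, with 22.2% beyond 2-fold, and the HT29 and SW480 ones 0.828 and 21%. The knockdown and control libraries of a single line were less alike than the HCT116 and SW480 controls, at 0.951 in HT29 and 0.650 in HCT116. The pair of SW480 was not compared. The HCT116 knockdown library held 2187373 reads, fewer than any control library, and 129 of its listed genes had no reads. How far this lower depth accounts for the value of 0.650 was not tested, so that value is a weak benchmark. Whether the closeness of the HCT116 and SW480 controls comes from the cells or from the handling of samples was not tested, and "HCT116" below means the library labelled so. These correlations run across genes, which are not independent replicates.

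Of the 10975 genes listed in both lines, 1647 (15%) were at least 2-fold higher in HCT116 with at least 5 CPM there, and 1477 (13.5%) were at least 2-fold higher in HT29 with at least 5 CPM there. At 4-fold the counts were 484 (4.41%) and 314 (2.86%). HCT116 held 52.7% of the 2-fold calls, and 64.1% under upper quartile scaling, which moved the median ratio of all genes by 0.17 on the log2 scale. With a minimum of 20 CPM the counts were 1068 in HCT116 and 1294 in HT29, so HCT116 then held 45.2% of the calls. The median log2 ratio of all genes was 0.01 with an SD across genes of 1.13. No gene past the 2-fold limit had a counting interval that included equal levels, which the 2-fold and 5 CPM limits largely bring about. Intervals of genes with few reads were wide. That of WNT11 ran from 1.33 to 3.95-fold toward HT29 and that of STMN3 from 47.3 to 246-fold toward HCT116. The spread between cultures of a line was not measured. In RNA from a whole culture, more cells that express a gene and more RNA of it per cell cannot be told apart.

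**Figure D1:**
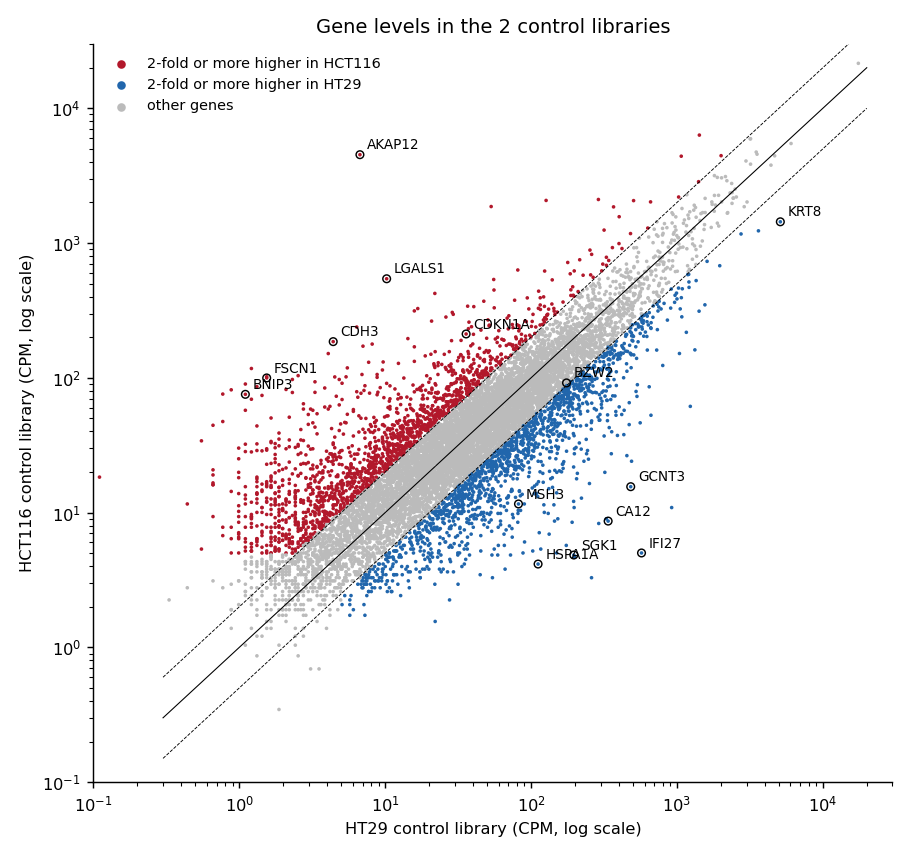
CPM of each gene listed in both lines in the HT29 (x axis, log scale) and HCT116 (y axis, log scale) control libraries. The solid line marks equal levels and the dashed lines 2-fold, red and blue mark the 1647 and 1477 genes past 2-fold with at least 5 CPM, and circles mark named genes, with AKAP12 farthest above the line.

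The largest ratio toward HCT116 was that of AKAP12, a scaffold for protein kinase A, with 26168 reads (4526 CPM) in HCT116 and 61 reads (6.71 CPM) in HT29. Its level was 674-fold higher in HCT116 (interval 525 to 882), and the gene lies on chromosome 6 at 151239999 to 151358557 (GRCh38). LGALS1, which encodes the glycan-binding protein galectin-1, had 543 CPM in HCT116 and 10.2 in HT29. WWTR1, which encodes the Hippo pathway coactivator TAZ, had 89.9 and 1.10 CPM. The actin-bundling protein gene FSCN1 had 99.8 and 1.54 CPM, and BNIP3, a mitophagy receptor, 75.4 and 1.10. All of these were rare in the HT29 library and common in that of HCT116.

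PDP1, the phosphatase that activates pyruvate dehydrogenase, was the most deeply counted of the others, with 10789 reads in HCT116 and 484 in HT29, a 35.0-fold difference (interval 32.0 to 38.5). The dermatan sulfate epimerase gene DSE had 678 and 11 reads, the stathmin family gene STMN3 438 and 7, and CST6, an inhibitor of cysteine proteases, 497 and 12. ELAPOR2, HYCC1, PARM1, MRC2 (a collagen receptor) and SYTL3 had between 257 and 589 reads in HCT116 and between 6 and 14 in HT29. CDH3, which encodes P-cadherin, had 1073 and 40 reads.

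IFI27, an interferon-induced gene, had the largest ratio toward HT29, with 29 reads (5.02 CPM) in HCT116 and 5194 (571 CPM) in HT29, 114-fold higher in HT29 (interval 79.2 to 170). The syntrophin gene SNTB1 had 63 reads in HCT116 and 8361 in HT29. The cell adhesion gene AMIGO2 had 19 and 2360, and CA12, a membrane carbonic anhydrase, 50 and 3067. The mucin-type O-glycan enzyme gene GCNT3 had 15.6 CPM in HCT116 and 482 in HT29, and the sialyltransferase gene ST3GAL1 had 24.0 and 488 CPM. Both enzymes build glycan chains, and both were higher in HT29.

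Among the other genes with the largest ratios toward HT29, ERAP2 trims peptides for MHC class I and had 4.67 CPM in HCT116 and 198 in HT29. PARP14, an interferon-induced ADP-ribosyltransferase, had 61.4 and 1234 CPM. SGK1 (a serum- and glucocorticoid-regulated kinase) had 4.84 and 196 CPM, and the collagen-binding integrin subunit gene ITGA1 8.47 and 191. LMO7 and FRY, both on chromosome 13, had 8.99 and 8.30 CPM in HCT116 and 328 and 291 in HT29. ADAMTS6, PMEPA1 (a target and inhibitor of TGF-beta signalling) and HSPA1A had between 4.15 and 5.71 CPM in HCT116 and between 112 and 174 in HT29. HSPA1A has a near-identical neighbour, so its share of reads is uncertain.

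Genes listed in 1 line alone were more numerous on the HCT116 side. Of the 978 genes listed in HCT116 only, 690 had at least 5 CPM, against 117 of the 436 listed in HT29 only. The deeper HT29 libraries reach the inferred listing limit at a lower level, so the counts of genes listed alone do not share a limit. Of the HCT116-only genes, 921 (94.2%) were also listed in SW480, against 207 (47.5%) of the HT29-only genes.

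PCDH7, a protocadherin, had 2113 reads (365 CPM) in the HCT116 library, and HLTF, a DNA translocase that acts at replication forks, 2061 (356 CPM). PHLDB2 (326 CPM), the synaptic vesicle protein gene SYT1 (323), the Rac exchange factor gene TIAM1 (184) and VCAN (180), which encodes the matrix proteoglycan versican, were also blank in HT29. CPE, RAB31, PTPRG and ZNF518B completed the highest 10, at 157 to 176 CPM. In HT29 alone, CYP3A5, a drug-metabolising cytochrome P450, had 3039 reads (334 CPM). It was followed by the interferon-induced genes MX1 (226 CPM) and IFI44 (147), then ALPK3 (136), the Ras exchange factor gene RASGRF2 (119), the clock-related repressor gene BHLHE41 (117) and CEACAM1 (111), an epithelial adhesion molecule. COL16A1, AZGP1 and SGK2 had 81.0 to 100.3 CPM.

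For 14 of the 15 genes with the largest ratios toward HCT116, and for 10 of the 10 highest HCT116-only genes, the SW480 control level lay within 2-fold of the HCT116 level. The same held for 11 of the 15 genes with the largest ratios toward HT29. The SW480 level lay within 2-fold of HT29 for 0 of these genes.

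The groups below come from 32 lists of 891 distinct symbols, of which 613 symbols were in the table. Over all genes listed in both lines, 15% were higher in HCT116 and 13.5% in HT29 by the same limits. A list with counts near those shares does not stand apart from genes at large. Of 14 markers of the colon epithelium, 7 were not analysed here and CDH17 was listed in neither line. The other 6 (EPCAM, CDH1, KRT8, KRT18, KRT19 and CDX2) were listed in both. CDX2 was low in both libraries (8.99 and 4.40 CPM), so these markers show an epithelial identity and do not settle a colon one. The summed level of the 6 was 4124 CPM in HCT116 and 10673 in HT29. Most of it came from KRT8 and KRT18, whose counts are uncertain for a reason given below. The median level of the 6 was 629 CPM in HCT116 and 720 in HT29. Of 6 fibroblast markers only COL1A1 was in the table, with 11 reads in HCT116 and blank in HT29. The 6 leukocyte and 4 endothelial markers were not analysed here.

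**Figure D2:**
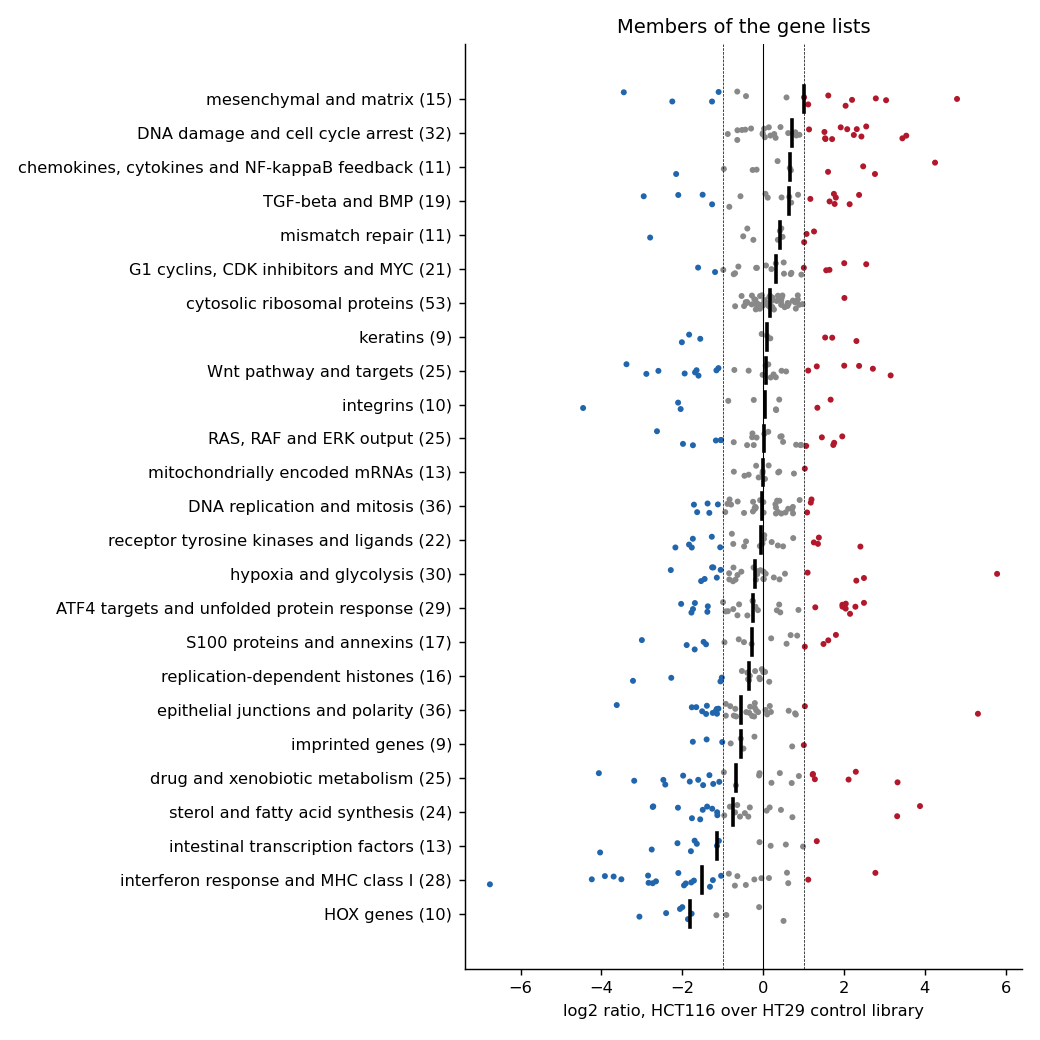
Each point is a gene listed in both lines, placed by its log2 ratio of HCT116 over HT29 (x axis) in the rows of its list (y axis, number of genes in brackets), for the 25 lists with at least 9 such genes. Black bars are medians, red and blue points passed 2-fold with 5 CPM, and HOX genes, with a median of -1.81, and interferon genes, with -1.51, lie farthest toward HT29.

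Transcription factors of the intestinal epithelium were mostly higher in HT29. Of 13 listed in both lines, 8 were at least 2-fold higher in HT29 and 1 in HCT116, and the median log2 ratio was -1.14. HNF4G, a nuclear receptor of enterocytes, had 22 reads (3.80 CPM) in HCT116 and 603 (66.3 CPM) in HT29. KLF5, a regulator of crypt cell growth, had 56.2 and 381 CPM. MYB had 3.11 and 14.4 CPM, and PPARG, a nuclear receptor for fatty acids, 43.4 and 150.

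Toward HCT116 the list had 1 gene past 2-fold, TCF7L2, the main partner of beta-catenin in the colon, at 93.2 CPM against 37.0. CDX2, the master regulator of intestinal identity, was low in both libraries, with 52 reads (8.99 CPM) in HCT116 and 40 (4.40 CPM) in HT29, a log2 ratio of 0.99. GFI1 was listed in HCT116 only, at 4.50 CPM. HNF4A was not analysed here.

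Among 5 enterocyte and brush border genes listed in both lines, 2 were higher in each direction. The peptidase gene DPP4 (25.1 CPM in HCT116 and 148 in HT29) and the microvillus scaffold gene USH1C (30.6 and 154) were higher in HT29. The carbonic anhydrase gene CA2 (15.6 and 1.54) and the sulfate transporter gene SLC26A2 (50.5 and 13.6) were higher in HCT116. A further 2 genes were listed in HCT116 only and 2 in HT29 only. Among them, ESPN, an actin bundler of microvilli, had 27.3 CPM in HCT116, and CEACAM1 had 111 CPM in HT29. Of 35 genes for mucins and secretory cells, 33 were not analysed here. Of the rest, SCG2, a granin of secretory granules, was listed in HCT116 only with 76.8 CPM, and SYP had 4.15 and 1.21 CPM.

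Junction and polarity genes leaned to HT29. Of 36 listed in both, 12 were at least 2-fold higher in HT29 and 2 in HCT116, with a median log2 ratio of -0.54, and upper quartile scaling left 7 and 2. The membrane serine protease gene ST14 had 567 reads (98.1 CPM) in HCT116 and 3031 (333 CPM) in HT29. Other examples were the claudin genes CLDN3 (22.1 and 70.2 CPM) and CLDN12 (65.7 and 187). E-cadherin (CDH1) had 187 CPM in HCT116 and 498 in HT29, a log2 ratio of -1.41, whereas P-cadherin (CDH3) stood at 5.31. The cadherins thus differed in opposite directions.

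Keratins, the intermediate filaments of epithelia, differed in both directions. KRT8 had 1438 CPM in HCT116 and 5112 in HT29, and its partner KRT18 had 1232 and 3619, while KRT19 had 935 and 873. KRT80 was also higher in HT29 (9.34 and 38.4 CPM). KRT15, KRT23 and KRT7 were higher in HCT116, at 25.6, 42.4 and 16.8 CPM against 4.95, 12.8 and 5.61. In all, 3 of 9 keratins were at least 2-fold higher in each direction. KRT8 and KRT18 have many processed copies in the genome, and how the authors' counting split such reads is not given in the sources used here.

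Mesenchymal and matrix genes leaned to HCT116. Of 15 listed in both, 8 were higher in HCT116 and 4 in HT29, with a median log2 ratio of 1.01. A further 6 were listed in HCT116 only and 2 in HT29 only. AXL, a receptor kinase, had 254 reads (43.9 CPM) in HCT116 and 12 (1.32 CPM) in HT29. CAV2, a caveolar coat protein gene, had 132 and 15.8 CPM, and FN1 (fibronectin) 32.0 and 4.40.

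Of the genes listed in HCT116 only, CAV1 had 129 CPM, the actin- and calmodulin-binding protein gene CALD1 117, COL6A1 40.8, ITGA5 38.2, LOXL2 27.5 and ZEB1, a repressor of epithelial genes, 11.1. The epithelial collagen gene COL17A1 (6.57 and 74.3 CPM) and the tropomyosin gene TPM1 (34.4 and 164) were higher in HT29. So were NT5E, which encodes an ecto-nucleotidase, and LAMA3, a laminin chain of the epithelial basement membrane, at 105 and 28.7 CPM in HCT116 and 252 and 61.8 in HT29. Vimentin (VIM), the filament that defines mesenchymal cells, was listed in neither line, and had 15.6 CPM in the library labelled SW480. The integrin chains went both ways, with 2 of 10 higher in HCT116 (ITGA3 and ITGA2) and 3 in HT29 (ITGA1, ITGB5 and ITGB8). The shared beta subunit ITGB1 had 1484 and 1125 CPM.

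Interferon response genes were mostly higher in HT29. The response includes the antiviral proteins that cells make when type I interferon activates a complex that includes STAT2 and IRF9 and binds a promoter element known as the interferon-stimulated response element. The core of that element is written here as GAAANNGAAA and was searched for on both strands. Promoters of 4 of these genes, chosen after their values were seen, are shown as examples that hold the element, which is in capitals (on the opposite strand it reads TTTCNNTTTC). They are RefSeq promoters of GRCh38.p14, 250 bases before the start site to 50 after it, read 5′ to 3′ on the gene's strand, which is the forward strand in all 4. They span chr10:89392373-89392672 (IFIT1), chr14:94110486-94110785 (IFI27), chr1:78649539-78649838 (IFI44) and chr21:41420308-41420607 (MX1).
IFIT1: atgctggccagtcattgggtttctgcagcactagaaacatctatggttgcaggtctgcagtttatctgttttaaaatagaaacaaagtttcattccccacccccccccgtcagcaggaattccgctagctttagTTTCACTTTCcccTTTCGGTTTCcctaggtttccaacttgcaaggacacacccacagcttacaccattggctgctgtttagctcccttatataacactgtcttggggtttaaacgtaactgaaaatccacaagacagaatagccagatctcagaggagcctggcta
IFI27: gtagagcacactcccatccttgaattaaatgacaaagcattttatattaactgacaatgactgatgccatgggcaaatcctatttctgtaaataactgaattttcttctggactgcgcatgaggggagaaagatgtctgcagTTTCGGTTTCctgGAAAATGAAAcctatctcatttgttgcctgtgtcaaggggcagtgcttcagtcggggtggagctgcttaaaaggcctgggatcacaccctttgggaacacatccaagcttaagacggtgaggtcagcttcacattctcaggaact
IFI44: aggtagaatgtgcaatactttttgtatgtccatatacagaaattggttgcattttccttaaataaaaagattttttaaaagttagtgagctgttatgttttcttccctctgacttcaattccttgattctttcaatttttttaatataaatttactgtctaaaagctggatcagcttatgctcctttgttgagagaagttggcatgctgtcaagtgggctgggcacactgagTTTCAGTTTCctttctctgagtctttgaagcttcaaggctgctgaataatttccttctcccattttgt
MX1: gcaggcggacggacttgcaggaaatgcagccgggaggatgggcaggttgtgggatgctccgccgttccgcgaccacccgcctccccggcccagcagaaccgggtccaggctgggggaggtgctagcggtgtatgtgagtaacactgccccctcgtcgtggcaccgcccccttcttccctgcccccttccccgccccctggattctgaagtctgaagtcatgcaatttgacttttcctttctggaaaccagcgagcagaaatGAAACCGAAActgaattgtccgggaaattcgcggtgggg

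The element appeared in IFIT1 at 116 and 103 bases before the start site and in IFI27 at 108 and 95 before it. In IFI44 it lay 18 bases before the start and in MX1 11 bases after it. It was present in 13 of 16 interferon response genes with a promoter in the RefSeq table, against 3.65% of all 27305 promoters there. The promoters of STAT2, IRF1 and IRF9, the last listed in HT29 only, held none. Over all genes, those of the list included, 7.05% of promoters of genes at least 4-fold higher in HT29 held it, 1.45% of those at least 4-fold higher in HCT116, and 2.56% of those listed in both lines. With the genes of the interferon and MHC class I list left out, the 4-fold shares were 4.70% in HT29 and 1.46% in HCT116. A match describes letters and does not show binding.

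Of 28 genes of interferon response and MHC class I listed in both lines, 17 were at least 2-fold higher in HT29 and 2 in HCT116, with a median log2 ratio of -1.51. A further 3 (MX1, IFI44 and IRF9) were listed in HT29 only. IFIT2, which binds viral RNA, had 30 reads (5.19 CPM) in HCT116 and 933 (103 CPM) in HT29, 19.8-fold higher in HT29 (interval 13.8 to 29.5). IFIT1 had 95 reads (16.4 CPM) and 2284 (251 CPM), and IRF7, the factor that amplifies interferon production, 57 (9.86 CPM) and 1191 (131 CPM). All were high in HT29 and low in HCT116, as was IFI27 above. The RNA sensor gene IFIH1, chosen after its values were seen, had 16.3 CPM in HCT116 and 109 in HT29.

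The MHC class I genes were mixed. HLA-B had 259 CPM in HCT116 and 37.5 in HT29, and HLA-C 313 and 144. B2M, the light chain shared by all class I molecules, had 586 and 1204 CPM, a log2 ratio of -1.04 (chosen after its values were seen). The HLA genes are near-identical and highly variable, so reads can be split or lost unevenly between lines, and their ratios are uncertain.

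Genes of the DNA damage and cell cycle arrest response leaned to HCT116. Of 32 genes listed in both lines, 13 were at least 2-fold higher in HCT116 and 0 in HT29, with a median log2 ratio of 0.71, and the decoy receptor gene TNFRSF10C was listed in HCT116 only. CDKN1A, which encodes the cell cycle inhibitor p21, had 1223 reads (212 CPM) in HCT116 and 326 (35.9 CPM) in HT29, 5.90-fold higher in HCT116 (interval 5.21 to 6.68). The decoy receptor gene TNFRSF10D had 114 and 9.57 CPM, TP53INP1, a regulator of autophagy, 80.6 and 7.15, and ZMAT3, an RNA-binding protein gene, 119 and 21.9.

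GDF15 and BAX stayed within 2-fold. GDF15, a secreted stress cytokine, had 564 CPM in HCT116 and 466 in HT29, and BAX, a mitochondrial death effector chosen after its values were seen, had 23.9 and 37.3. On chromosome 8, whose genes leaned to HCT116 as a whole, lay 4 of the 32 genes. Without them 9 of 28 were higher in HCT116 and 0 in HT29, and the median log2 ratio dropped to 0.37. The SW480 control library held 167 CPM of CDKN1A, nearer to the HCT116 than to the HT29 level.

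**Figure D3:**
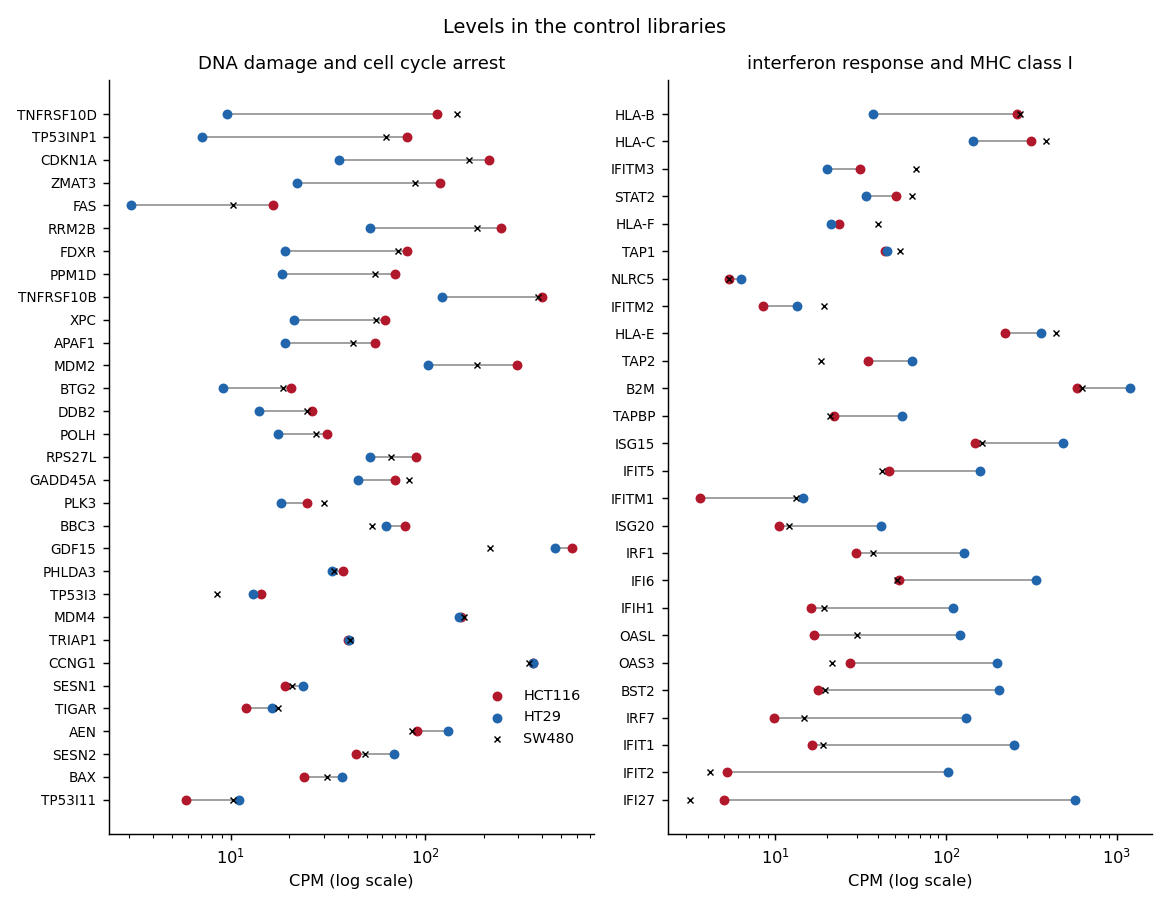
CPM (x axis, log scale) of genes of the DNA damage and arrest list (left) and of the interferon and MHC class I list (right) that were listed in both lines and are reported here, 1 gene a row (y axis), in the HCT116 (red), HT29 (blue) and SW480 (cross) control libraries. At least 2-fold to the right lie 13 of 31 genes of the left panel in HCT116, and 16 of 26 of the right panel in HT29.

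The mismatch repair genes went both ways, beside shares over all genes of 15% higher in HCT116 and 13.5% in HT29. Of 11 genes, 3 were at least 2-fold higher in HCT116 (EPM2AIP1, PMS1 and EXO1, with log2 ratios between 1.02 and 1.26) and 1 in HT29. That gene was MSH3, which recognises insertion and deletion loops, with 67 reads (11.6 CPM) in HCT116 and 745 (82.0 CPM) in HT29, 7.07-fold higher in HT29 (interval 5.50 to 9.22).

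Wnt pathway genes differed in both directions, with 6 of 25 higher in HCT116, 9 in HT29 and a median log2 ratio of 0.06. CTNNB1 (beta-catenin) had 558 and 466 CPM. The feedback inhibitor AXIN2, a direct target of the pathway, had 34 reads (5.88 CPM) in HCT116 and 334 (36.7 CPM) in HT29, and ZNRF3, which removes Wnt receptors, 17.1 and 66.5 CPM. The R-spondin receptor gene LGR4 (29.6 and 221 CPM) and ETS2 (45.0 and 470) were also higher in HT29.

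Higher in HCT116 were EPHB2, a receptor of crypt position (29.6 and 3.08 CPM), the secreted Wnt inhibitor gene DKK1 (189 and 28.5), BAMBI (9.68 and 1.65) and cyclin D1, CCND1 (718 and 178). The ligand gene WNT16 was listed in HCT116 only, with 847 reads (146 CPM), and was chosen after its value was seen. Members of the same list of targets thus lay on opposite sides.

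BRAF transcripts were near equal, at 88.7 CPM in HCT116 and 99.2 in HT29. Of 25 genes of the RAS to ERK cascade and its output, 5 were higher in HCT116 and 6 in HT29, with a median log2 ratio of 0.03. The counts were 6 and 4 when libraries were scaled by total listed reads, and 7 and 3 under upper quartile scaling. The feedback inhibitor genes SPRY2 (4.32 and 28.1 CPM) and SPRY1 (8.99 and 36.3) and the ETS factor gene ETV4 (9.86 and 33.4) were higher in HT29. The ERK phosphatase genes DUSP6 (1155 and 535 reads) and DUSP4 (1437 and 676), and the ETS factor gene ETV1 (274 and 109), were higher in HCT116. Feedback genes of the cascade therefore did not share a direction.

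Among receptor tyrosine kinases and their ligands, 4 of 22 were higher in HCT116 and 6 in HT29, with a median log2 ratio of -0.05. Over all genes the shares were 15% and 13.5%. ERBB3 had 30.4 CPM in HCT116 and 138 in HT29, the insulin-like growth factor gene IGF2 10.2 and 34.7, and PDGFC 22.1 and 75.8. The growth factor-binding protein gene IGFBP2 (712 and 209 reads), FGFR4 (221 and 132) and the EGFR inhibitor gene ERRFI1 (5348 and 3281) were higher in HCT116. So was the EGFR ligand gene AREG (4534 and 2984 reads, or 784 and 328 CPM). EGFR and MET did not pass 2-fold, at 120 and 787 CPM in HCT116 and 118 and 795 in HT29, EGFR being chosen after its values were seen. FGFR1 and RET were listed in HCT116 only, at 33.7 and 10.6 CPM, and were also chosen after their values were seen.

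In TGF-beta and BMP signalling 7 of 19 genes were higher in HCT116 and 4 in HT29, with a median log2 ratio of 0.65. SMAD4, the shared mediator of both branches, had 819 reads (142 CPM) in HCT116 and 290 (31.9 CPM) in HT29, 4.44-fold higher in HCT116 (interval 3.88 to 5.09). BAMBI, a decoy receptor (given above), and the receptors TGFBR3 (20.6 and 5.72 CPM) and TGFBR1 (137 and 40.4) were also higher in HCT116, as was the ligand gene TGFB1 (1.77 on the log2 scale). The inhibitory SMAD genes went the other way, with SMAD6 at 13.8 and 109 CPM and SMAD7 at 4.50 and 20.1. So did TGFBR2 (74.9 and 180) and the ligand gene BMP4 (89.6 and 253). The BMP target gene ID3, chosen after its value was seen, had 57.4 CPM in HCT116 and was blank in HT29.

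HOX genes, which keep the positional identity of the gut, were higher in HT29 in 6 of 10 cases and in HCT116 in 0, with a median log2 ratio of -1.81. HOXB3 had 30 reads (5.19 CPM) in HCT116 and 411 (45.2 CPM) in HT29, HOXB9 75 reads and 632. HOXB6 had 8.82 and 37.5 CPM, and HOXA13, the most posterior of its cluster, 10.9 and 44.3. A further 5 were listed in HT29 only, among them HOXA3, HOXA6, HOXA7 and HOXC6 at 1.76 to 7.26 CPM, and HOXD8 in HCT116 only, at 12.3. HOXA9 (24.0 and 25.7) and HOXB13 (7.61 and 5.28), chosen after their values were seen, were within 2-fold.

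Of 35 cancer-testis antigen genes, 32 were not analysed here. The other 3, MAGEB2 (147 CPM), MAGEA3 (82.3) and PRAME (23.5), were listed in HCT116 only. MAGEA3 has a near-identical copy. Imprinted genes were higher in HCT116 in 1 of 9 cases (CDKN1C, 118 and 91 reads, a log2 ratio of 1.01 after scaling). In HT29 3 were higher (IGF2, MEST and GRB10), and the median was -0.55. Over all genes the shares were 15% in HCT116 and 13.5% in HT29. ZDBF2, SGCE and PLAGL1 were listed in HCT116 only, at 77.1, 29.4 and 11.2 CPM.

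Promoters of the HCT116-only genes HLTF and PCDH7 are shown with each CG in capitals, since the share of CpG-rich promoters differed between the sets of genes listed in 1 line. The promoters are RefSeq sequences of GRCh38.p14 on the gene's strand, which is the reverse strand at chr3:149086484-149086783 (HLTF) and the forward strand at chr4:30720119-30720418 (PCDH7).
HLTF: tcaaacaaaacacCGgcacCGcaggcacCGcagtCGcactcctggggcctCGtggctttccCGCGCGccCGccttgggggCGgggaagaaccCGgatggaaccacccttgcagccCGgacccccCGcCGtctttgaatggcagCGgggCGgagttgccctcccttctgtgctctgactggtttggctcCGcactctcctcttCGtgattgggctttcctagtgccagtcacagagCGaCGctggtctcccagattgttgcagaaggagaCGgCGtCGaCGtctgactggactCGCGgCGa
PCDH7: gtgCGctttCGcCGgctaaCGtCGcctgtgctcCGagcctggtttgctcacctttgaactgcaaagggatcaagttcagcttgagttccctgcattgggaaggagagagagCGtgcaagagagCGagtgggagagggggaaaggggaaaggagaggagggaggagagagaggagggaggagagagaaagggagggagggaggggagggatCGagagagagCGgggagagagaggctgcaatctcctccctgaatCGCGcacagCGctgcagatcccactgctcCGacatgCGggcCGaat

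These promoters hold 27 and 16 CG pairs in 300 bases. A promoter was counted as CpG-rich where its GC content passed 50% and its observed over expected CG ratio passed 0.6. By that rule 72.6% of the promoters of HCT116-only genes with at least 5 CPM were CpG-rich, against 46.3% for HT29-only genes and 84.0% for genes listed in both lines. Among genes listed in both lines and at least 4-fold apart, 77.6% of those higher in HCT116 and 67.2% of those higher in HT29 were CpG-rich. DNA methylation was not measured in the series.

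Drug and xenobiotic metabolism leaned to HT29, with 11 of 25 genes higher there, 6 in HCT116 and a median log2 ratio of -0.67. The aldo-keto reductase gene AKR1C3 had 29 reads (5.02 CPM) in HCT116 and 800 (88.0 CPM) in HT29, and the efflux pump gene ABCG2 40 (6.92 CPM) and 593 (65.2 CPM). The transporter gene ABCC3 had 53.4 and 297 CPM, and AKR1C1 6.05 and 33.6. AKR1C genes are close copies of each other, so their split of reads is uncertain.

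The retinaldehyde dehydrogenase gene ALDH1A3 (296 and 29.3 CPM), the vitamin D-degrading enzyme gene CYP24A1 (82.0 and 16.5), CES3 (7.09 and 1.43) and MGST3 (66.4 and 27.2) were higher in HCT116. CYP3A5 was listed in HT29 only, as given above. ABCC2 was listed in HCT116 only with 669 reads (116 CPM), and ABCB1 with 69 (11.9 CPM), both efflux pump genes chosen after their values were seen. Efflux pumps thus differed in opposite directions.

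Sterol and fatty acid synthesis also leaned to HT29, with 10 of 24 genes higher there, 2 in HCT116 and a median log2 ratio of -0.76. INSIG1, the sterol sensor's retention protein, had 30.4 CPM in HCT116 and 203 in HT29, SQLE (squalene epoxidase) 60.9 and 402, HMGCS1 56.6 and 244, and IDI1 45.5 and 155. The desaturase gene FADS1 went the other way, with 612 reads (106 CPM) in HCT116 and 63 (6.93 CPM) in HT29. FADS2, listed in HCT116 only at 6.57 CPM and chosen after its value was seen, neighbours FADS1.

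In the list of ATF4 targets and the unfolded protein response, 8 of 29 genes were higher in HCT116 and 6 in HT29, with a median log2 ratio of -0.25. Most of those with the largest ratios toward HCT116 were folding factors of the endoplasmic reticulum. SDF2L1 had 60.2 and 10.5 CPM, MANF 377 and 77.1, HSP90B1 6325 and 1424, and HSPA5, the chaperone BiP, 4410 and 1070. ALDH1L2, a mitochondrial folate enzyme gene, was also higher in HCT116, with 6.74 and 1.43 CPM. Those toward HT29 were XBP1, a transcription factor of the same response (119 and 485 CPM), TRIB3 (148 and 506), CEBPB (63.5 and 212) and SHMT2, a mitochondrial serine enzyme gene (228 and 734). ATF4 itself had 740 and 881 CPM. HSPA5 and ATF4 were chosen after their values were seen.

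Hypoxia and glycolysis genes were higher in HCT116 in 4 of 30 cases and in HT29 in 7, with a median log2 ratio of -0.21. The shares over all genes were 15% and 13.5%. Next to BNIP3, the vasoactive peptide gene ADM (156 and 27.5 CPM), ANKRD37 (22.8 and 4.40) and BNIP3L (163 and 75.9) were higher in HCT116. VEGFA, the main angiogenic factor, had 68.0 and 332 CPM, the glycolytic enzyme gene PGK1 679 and 1964, the glucose transporter gene SLC2A1 393 and 1072, and NDRG1 324 and 778. ENO1, another glycolytic enzyme gene, had 2515 and 2504 CPM.

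Cell cycle regulators were higher in HCT116 in 5 of 21 cases (CDKN1A and CCND1 above, E2F2, CCNE2 and CDKN1C), beside 15% of all genes. In HT29 2 were higher, beside 13.5% of all genes. These 2 were CDK6, a G1 kinase, with 87.0 and 266 CPM, and CDKN2A, the INK4A and ARF locus, with 18.7 and 42.9. MYC had 118 CPM in HCT116 and 95.2 in HT29. Of 36 replication and mitosis genes, 3 were higher in HCT116 (CDT1, ORC1 and CDC6) and 5 in HT29 (AURKA, CCNB2, TOP2A, CENPE and PLK1). Their median was -0.03, and that of all genes 0.01. Over all genes the shares were 15% and 13.5%, so the HT29 count did not stand apart. CDC6 had 123 and 57.7 CPM, AURKA 20.9 and 69.1, and TOP2A 190 and 492.

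S100 and annexin genes went both ways, with 4 of 17 higher in HCT116 and 5 in HT29 and a median of -0.28. ANXA4, a calcium-dependent membrane binder, had 42.7 and 343 CPM, and ANXA1, an inhibitor of phospholipase, 752 and 215. Among chemokines, cytokines and NF-kappaB feedback genes, 4 of 11 were higher in HCT116 and 1 in HT29, with a median of 0.66. The cytokine gene IL18 had 562 reads (97.2 CPM) in HCT116 and 44 (4.84 CPM) in HT29, CXCL16 19.5 and 2.64 CPM, and NFKB2 61.2 and 10.8, while TNFAIP2 had 37.2 and 166.

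Cytosolic ribosomal protein genes and mitochondrially encoded mRNAs lay close to equal, and histone genes less so. Of 53 cytosolic ribosomal protein genes 1 was at least 2-fold higher in HCT116 and 0 in HT29, with a median of 0.17, and upper quartile scaling raised that count to 5. The exception was RPL22L1, a paralog of RPL22, with 277 and 68.5 CPM. Of 13 mitochondrially encoded mRNAs, 1 (MT-ND3, log2 ratio 1.03) was higher in HCT116 and 0 in HT29, with a median of -0.01. Of 16 histone genes 0 were higher in HCT116 and 4 in HT29, with a median of -0.34. H2BC13 had 8.47 and 81.1 CPM and H4C8 28.4 and 138. Scaling by total reads or upper quartile left 2 higher in HT29. Histone genes are near copies of each other, so their reads may be split unevenly.

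Of the genes the study targeted, BZW2 had 530 reads (91.7 CPM) in the HCT116 control library and 1590 (175 CPM) in that of HT29, a log2 ratio of -0.93, or 1.91-fold higher in HT29 (interval 1.73 to 2.11), which is under the 2-fold limit. Its paralog BZW1, another translation regulator, had 3594 reads (622 CPM) and 2771 (305 CPM), a log2 ratio of 1.03.

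Position in the genome divided the genes as well. Chromosome 8 had the highest median log2 ratio, 0.66 over 361 genes, with 131 genes at least 2-fold higher in HCT116 and 44 in HT29. Chromosome 14 followed with 0.45 over 369 genes (96 and 23 genes). At the other end stood chromosome 13 with -0.63 over 199 genes (13 and 63), chromosome 20 with -0.50 over 307 (28 and 88), chromosome 15 with -0.47 over 365 (27 and 79) and chromosome 11 with -0.44 over 635 (59 and 149). Chromosome 1, with 1151 genes, had a median of 0.00.

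**Figure D4:**
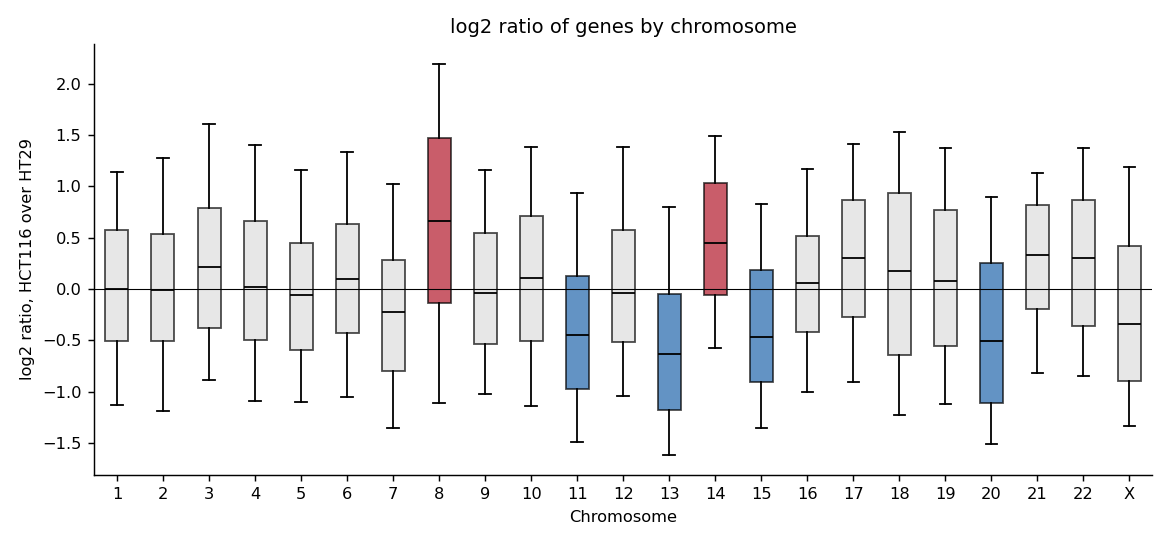
log2 ratio of HCT116 over HT29 (y axis) for genes listed in both lines, by chromosome (x axis). Boxes span the quartiles with the median as a line and whiskers reach the 10th and 90th percentiles, and chromosomes with medians above 0.4 (8 and 14) are red, and those below -0.4 (11, 13, 15 and 20) blue.

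Within chromosomes, the ratios varied along the gene order, and no break points were estimated. In windows of 10 Mb (GRCh38) with at least 20 genes, 20 of 214 had a median above 0.5 and 22 below -0.5. The first 50 Mb of chromosome 8, roughly its short arm, held 123 genes with a median of 1.47, of which 86 were at least 2-fold higher in HCT116 and 2 in HT29, and 95.9% lay above 0. Between 120 and 130 Mb on the same chromosome the median was -1.09 over 26 genes, of which 15 were higher in HT29. MYC, which lies in that window, was within 2-fold as given above.

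Chromosome 20 had a median of -0.04 up to 30 Mb and -0.68 beyond, where 75 of 212 genes were higher in HT29 and 16 in HCT116. Chromosome 3 was higher in HCT116 up to 60 Mb (median 0.48 over 284 genes) and had a median of -0.09 over 346 genes beyond. That later part was not even, with -0.50 over 62 genes between 120 and 130 Mb. Chromosome 19 had 0.51 up to 20 Mb and -0.28 beyond. On the X chromosome the last window, from 150 Mb, had a median of -0.85 over 43 genes against -0.25 before it. The earlier part included a window from 70 to 80 Mb at -0.62 over 29 genes. These stretches were chosen after the windows were seen. DNA copy number was not measured in the series, so its part in these differences was not tested.

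**Figure D5:**
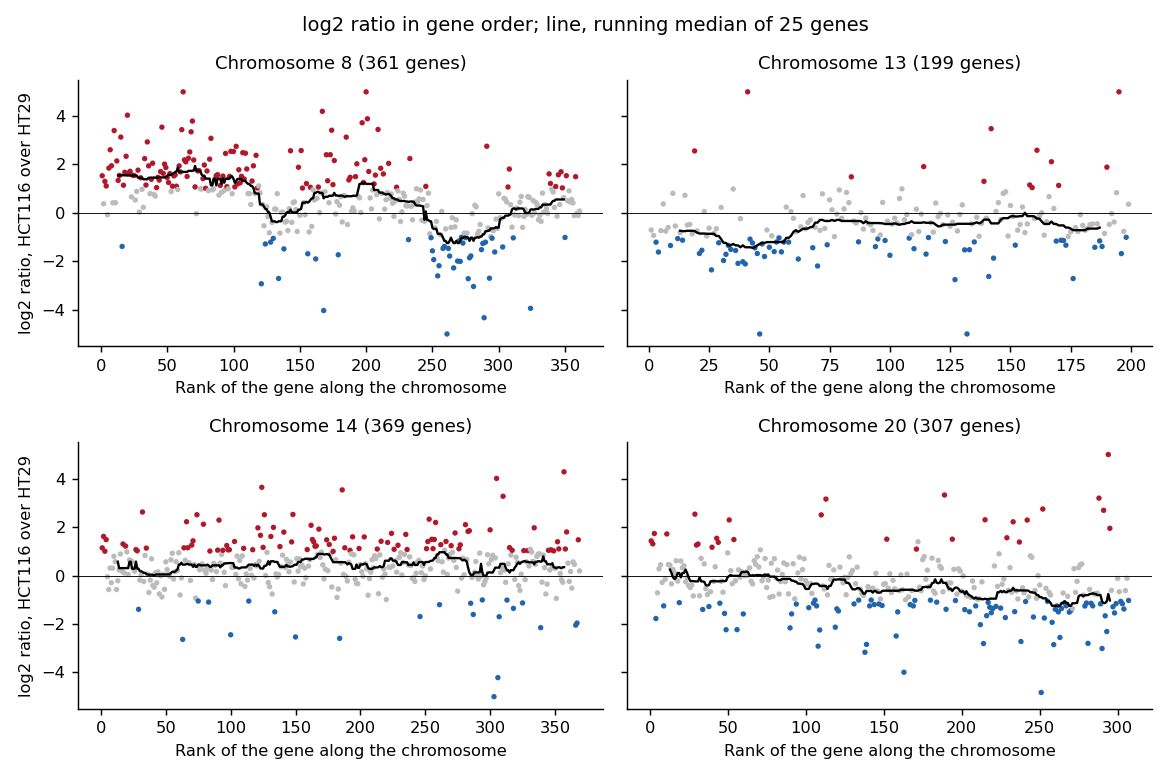
log2 ratio of HCT116 over HT29 (y axis, drawn up to 5 in either direction) against the rank of each gene along chromosomes 8, 13, 14 and 20 (x axis). Red and blue points passed 2-fold with 5 CPM, the line is the running median of 25 genes, and on chromosome 8 it runs above 1 over the first genes and below -1 later on the long arm.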

How the data were processed

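RNA from the 6 samples was sequenced, and the submitters' processing notes name bcl2fastq 2.17, STAR 2.5.2b, DESeq and the GRCh38 build. No source used here names the counter, the annotation or the strandedness. The deposited table holds a normalised signal, which per the values the authors made by dividing gene counts by size factors set within each line. Whole reads were recovered by dividing by the smallest step, within 0.1 read for 100% of values. The table had 266314 rows, and 19 repeated identifiers were left out, leaving 13021. The number of per-sample columns not used is 1. Symbols matched 13003 identifiers and GENCODE 29 matched 13018.

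Libraries were scaled with edgeR 4.0.16 (TMM, prior count of 2) over genes listed in both lines, without a test, after a check on simulated data. A gene was called at 2-fold or more with 5 CPM in the higher library. Python 3.11.15 and scipy 1.17.1 gave exact Clopper-Pearson intervals. DESeq2 1.42.0 gave size factors for an alternative scaling.

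The comparison and lists were chosen with earlier results of these data known. Genes named were BZW2 and BZW1, 15 per direction by the interval bound nearest to equality, the highest 10 listed in each line alone, and from each list up to 4 of largest ratio per direction, those of highest level within 2-fold, and its main regulators. List members listed in 1 line alone, and others marked so, were named after their values were seen. Some genes of this rule are not reported here, but they stay in the counts and medians of their lists. Promoters came from RefSeq (GRCh38.p14).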

Additional observations from a re-analysis of the deposited data

How the results depend on the processing

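The count of genes at least 2-fold higher in HCT116 was 1647, and it was 1068 with a minimum of 20 CPM and 484 with a 4-fold limit. The count higher in HT29 was 1477, 1294 with a minimum of 20 CPM, more than in HCT116, and 314 with a 4-fold limit. A minimum of 5 CPM left 117 of the 436 genes listed in HT29 only. The other alternatives (3 scalings, no level minimum, a prior count of 0.5, removal of a GC and length trend, protein-coding genes) kept both counts within 1.5 times. Upper quartile scaling gave 2036 and 1141. Of the list medians, 6 of the recomputed values changed sign, none with a main value beyond 0.05, and of the chromosome medians, recomputed under 2 scalings (total listed reads and DESeq2 size factors), 6 did, none beyond 0.06. Leaving out genes of chromosome 8, chosen after seeing the data, gave the DNA damage and arrest list a median of 0.37. Counting error depends on depth, and HCT116 had fewer reads, so low genes there are less precise. The alternative for a table without recoverable reads was not needed. No paired analysis was possible because each group has 1 library, and no library could be left out for the same reason.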
